A study of Mus musculus with 3 samples.

Results

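The comparison described here set mouse heart after myocardial infarction (MI) with dapagliflozin, the library labelled MI-DAPA, against sham-operated heart, the library labelled Sham-NS, and asked which genes and cell classes still stood apart from sham under treatment. Nuclei were isolated from hearts 2 weeks after surgery and profiled by single-nucleus RNA sequencing, which counts transcript molecules (unique molecular identifiers, UMIs) in each nucleus. The rule took 2 of the 3 libraries of the study and, in them, nuclei in which 300 genes or more were detected and no more than 10% of UMIs were mitochondrially encoded: 5372 nuclei of MI-DAPA and 8296 of Sham-NS, of 20733 kept in all. The labels do not spell out NS, and the strain and age, the dose and route of dapagliflozin, the number of animals pooled in a library and the hour of collection are not given in the sources used here. Each group was 1 library, so no difference has a replicate check and none was tested. Intervals are 95% intervals and cover counting error only.

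Dapagliflozin inhibits SGLT2, the sodium-glucose cotransporter encoded by Slc5a2, which reabsorbs glucose in the proximal tubule of the kidney. After an infarct, lost heart muscle is replaced by scar: resident fibroblasts become activated, lay down collagen and other matrix, and later settle into a scar-maintaining state, while surviving cardiomyocytes switch on stretch-responsive and fetal genes such as the natriuretic peptides. Blood vessels remodel at the border of the scar, and recruited macrophages join and partly replace the resident ones.

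Sham-NS held 13873275 UMIs in 9744 barcodes and MI-DAPA 8871086 UMIs in 6354 barcodes, and 20 barcode sequences occurred in both. The kept nuclei were shallow, with a median of 790 UMIs in Sham-NS and 831 in MI-DAPA. Mitochondrially encoded UMIs had a median share of 3.32% in Sham-NS and 2.42% in MI-DAPA. Clusters with high doublet scores, which held 16.2% of Sham-NS and 10.8% of MI-DAPA nuclei, were left out as mixed, since the doublet caller itself called 0 and 1 nuclei and so had not worked. Free RNA was not removed. Classes were named from marker genes, and in both libraries every marker of the cardiomyocyte-like (11), fibroblast-like (10), vascular endothelial-like (10), macrophage-like (10) and pericyte-like (9) nuclei stood at least 2-fold above its level in the remaining nuclei.

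Cardiomyocyte-like nuclei made up a larger share of MI-DAPA than of Sham-NS, and vascular endothelial-like, endocardial-like and macrophage-like nuclei a smaller one. The cardiomyocyte-like share was 22.9% (21.9 to 23.9) in Sham-NS and 29.9% (28.6 to 31.2) in MI-DAPA, and the fibroblast-like share 25.4% (24.3 to 26.4) and 28.2% (27.0 to 29.5). Macrophage-like nuclei were 10.9% (10.2 to 11.6) of Sham-NS and 7.66% (6.92 to 8.45) of MI-DAPA. Pericyte-like nuclei, the contractile cells that wrap capillaries, were at 7.48% and 6.99%, with overlapping intervals. Endocardial-like nuclei, which line the chambers, were at 4.29% (298 nuclei) and 1.61% (77 nuclei). A cluster named for cell cycle genes was at 0.662% (46) and 1.77% (85). Its leading genes also held the immunoglobulin genes Ighg2c and Ighg2b and the dendritic cell marker Clec9a. With finer clustering (resolution 2.0) a cycling cluster of 34 and 80 nuclei stood apart from a dendritic one of 42 and 35. Nucleus shares depend on how nuclei survive isolation and on which clusters take a name, so they are not counts of cells in the heart.

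Vascular endothelial-like nuclei were 23.2% (22.2 to 24.2) of Sham-NS and 10.6% (9.78 to 11.5) of MI-DAPA, but a separate cluster led by Prnd and Kit ran the other way, at 1.60% (1.32 to 1.92) and 9.81% (8.98 to 10.7). Kit, a receptor tyrosine kinase known from mast cells, kept this cluster unnamed under the naming rule. Kit stood at 363 CPM (the UMIs of a gene scaled to a common total of UMIs in the class) there in Sham-NS and 294 in MI-DAPA, against 5.68 and 5.93 in all other nuclei, while the other 4 mast cell markers had 0 UMIs in it in both libraries. The endothelial genes Egfl7, Pecam1 and Kdr, the last encoding the main VEGF receptor, were at 2505, 740 and 701 CPM in the Sham-NS nuclei of the cluster and at 2588, 745 and 1405 CPM in the MI-DAPA nuclei. With that cluster added, vascular endothelial-like nuclei came to 24.7% (23.7 to 25.8) of Sham-NS and 20.4% (19.3 to 21.6) of MI-DAPA, so most of the gap lay between these clusters.

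**Figure D1:**
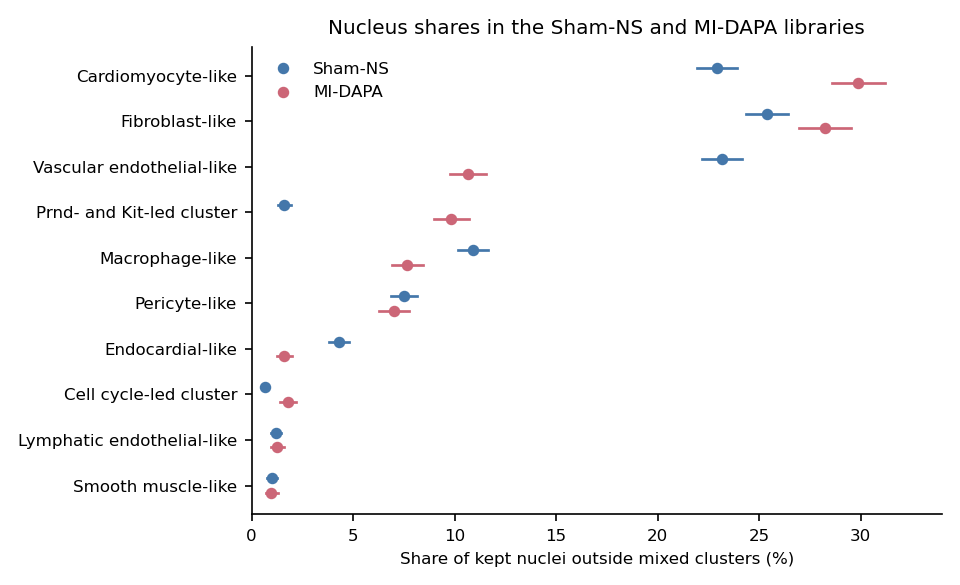
Share of kept nuclei outside mixed clusters (horizontal axis, %) for each class (vertical axis) in Sham-NS (blue) and MI-DAPA (red), with exact binomial 95% intervals as bars. The Prnd- and Kit-led cluster sits at 1.60% and 9.81% and the vascular endothelial-like class at 23.2% and 10.6%, in opposite directions.

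Most genes stood close to sham in every class. A gene was measurable in a class with at least 50 UMIs over both libraries, and was counted as different when the log2 ratio of its CPM, MI-DAPA over Sham-NS with 0.5 UMI added to each sum, reached 2-fold. In cardiomyocyte-like nuclei 185 of 8494 measurable genes (2.18%) were at least 2-fold higher in MI-DAPA and 166 (1.95%) at least 2-fold lower. Fibroblast-like nuclei had the largest shares of the 4 main classes, with 289 of 7278 genes higher (3.97%) and 196 lower (2.69%). In vascular endothelial-like nuclei 71 of 5028 were higher (1.41%) and 123 lower (2.45%), and in macrophage-like nuclei 40 of 3183 were higher (1.26%) and 67 lower (2.10%). The median log2 ratio over all measurable genes lay between -0.04 and 0.06 in these classes. Genes whose whole counting interval lay past 2-fold were fewer: 53 higher (0.624%) and 37 lower (0.436%) in cardiomyocyte-like nuclei, 103 (1.42%) and 63 (0.866%) in fibroblast-like nuclei. The same counts were 6 (0.119%) and 15 (0.298%) in vascular endothelial-like nuclei, and 4 (0.126%) and 10 (0.314%) in macrophage-like nuclei. At the threshold itself, Fbxl22 in cardiomyocyte-like nuclei was just inside at 1.00 and Phyhip just outside at 0.99, and in fibroblast-like nuclei Ppm1d was just inside at -1.01 and Ms4a4d just outside at -0.99.

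**Figure D2:**
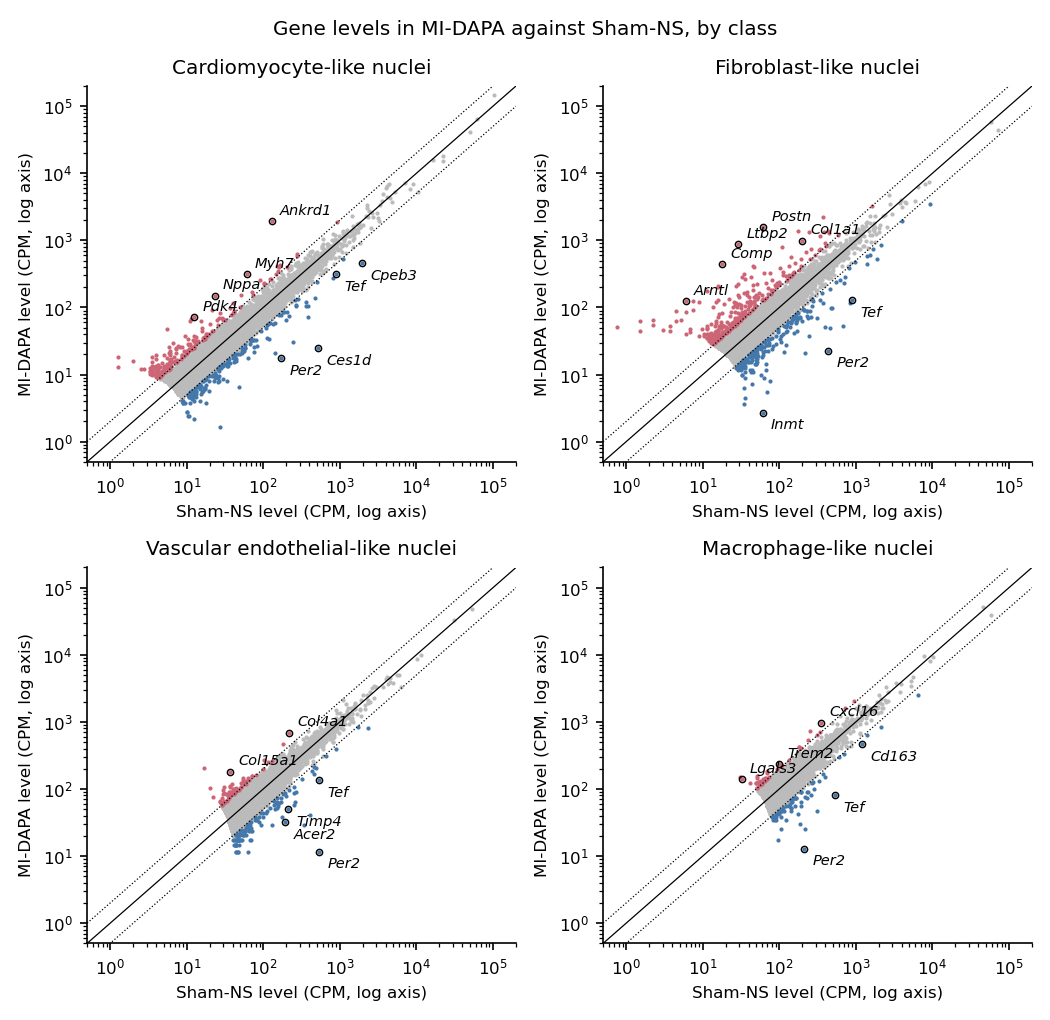
Level of each measurable gene in Sham-NS (horizontal axis, CPM, log scale) and MI-DAPA (vertical axis, CPM, log scale) in 4 classes, with the line of equal level and dotted lines at 2-fold. Points at least 2-fold higher in MI-DAPA are red and those at least 2-fold lower blue, genes with 0 UMIs in a library are not drawn, and Per2 and Tef lie under the lower line in all 4 panels.

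A set of 8 genes was at least 2-fold lower in MI-DAPA in all 4 main classes (0.311% of the 2574 genes measurable in all 4), and 0 genes were at least 2-fold higher in all 4 (0%). They were Per1, Per2, Per3, Tef, Zbtb16, Cpeb3, Slc15a2 and Abca8a. The first 4 belong to the circadian clock, the feedback loop in which the activators BMAL1 (encoded by Arntl) and CLOCK or NPAS2 drive the Per, Cry and Nr1d genes, whose proteins shut the activators down, together with output factors such as Dbp, Tef and Hlf. The classes of a library share its tissue, its time of collection and its free RNA, so they are not replicates of each other. With the hour of collection not given and 1 library per group, the clock values cannot be told apart from a difference in that hour between the libraries.

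Per2 (chr1:91415982-91459324), a core repressor of the clock, had the largest gap of the 8 in each main class. It stood at 169 CPM in Sham-NS and 17.7 in MI-DAPA in cardiomyocyte-like nuclei, at 432 and 22.6 in fibroblast-like nuclei, and at 540 and 11.7 in vascular endothelial-like nuclei. In macrophage-like nuclei it was at 212 and 12.9 CPM, in pericyte-like nuclei at 922 and 78.7, and in the Prnd- and Kit-led cluster at 467 and 18.8. The log2 ratios in the 4 main classes were -3.25 (-3.65 to -2.89), -4.23 (-4.90 to -3.68), -5.36 (-7.41 to -4.16) and -3.83 (-6.34 to -2.46), in the order cardiomyocyte-, fibroblast-, vascular endothelial- and macrophage-like, so Per2 was low in MI-DAPA in every class counted. Per3 (chr4:151003652-151044665), its paralog, had log2 ratios of -2.42, -3.65, -3.26 and -2.66 in the same order. Tef (chr15:81802421-81826863), a D-box-binding output factor, was at -1.50, -2.80, -1.99 and -2.67. Per1 (chr11:69095217-69109960) was at -1.82, -1.58, -1.30 and -1.96.

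Across the 12 repressor and output genes of the clock, 10 of 12 measurable members were lower in MI-DAPA in cardiomyocyte-like nuclei (median log2 ratio -0.61, all genes -0.04), 11 of 12 in fibroblast-like nuclei (-2.19, all genes 0.06), 8 of 10 in vascular endothelial-like nuclei (-1.28, all genes 0.02) and 6 of 6 in macrophage-like nuclei (-2.67, all genes 0.04). At least 2-fold lower were 5, 8, 7 and 6 of them, where 1.95%, 2.69%, 2.45% and 2.10% of all measurable genes were. At least 2-fold higher were 2 of the 12 in cardiomyocyte-like nuclei (all genes 2.18%) and 0 in each other main class. The activator Arntl ran the other way: 8 UMIs in Sham-NS and 139 in MI-DAPA in fibroblast-like nuclei, a log2 ratio of 4.30 (3.37 to 5.63), and 11 and 45 UMIs in cardiomyocyte-like nuclei, a ratio of 2.10 (1.18 to 3.25). It had 3 and 17 UMIs in vascular endothelial-like, 2 and 23 in macrophage-like and 2 and 12 in pericyte-like nuclei, under the minimum but higher in MI-DAPA in each. Npas2, the partner that can take the place of CLOCK, was at 4.51 and 62.4 CPM in fibroblast-like nuclei. As a list, the 7 activator genes were higher in 3 of 4 measurable members in fibroblast-like nuclei (median 2.39). Genes nearly absent from sham, such as Arntl (8 and 139 UMIs), reach the UMI minimum only when high in MI-DAPA. That count and median are therefore partly set by the minimum. In cardiomyocyte-like nuclei the list was split, with 3 of 6 higher and 3 lower (median 0.26, lowest -1.84). In vascular endothelial-like nuclei 1 of 2 was higher. The only measurable member was lower in macrophage-like (-0.72) and in pericyte-like nuclei (-0.83).

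Cardiomyocyte-like nuclei differed from the fibroblast-like ones in part of this arm. Dbp, an output factor, was at 206 and 197 CPM in cardiomyocyte-like nuclei (log2 ratio -0.06) and at 397 and 51.5 in fibroblast-like nuclei (-2.94). Nr1d1, which encodes the repressor REV-ERB alpha, was higher in MI-DAPA in cardiomyocyte-like nuclei, at 36.7 and 98.2 CPM (1.42), and lower in fibroblast-like nuclei, at 302 and 155 CPM (-0.96). Ciart, a clock repressor, was lower in both, at -2.83 and -2.84. With 1 library per group the difference between the classes was not tested.

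Since these genes were low together, the promoter windows of the 8 shared genes and of the clock repressor and output genes were searched for the letters CACGTG, the E-box core through which BMAL1 and CLOCK act, and TTATGTAA, the D-box letters bound by Tef and its relatives. RefSeq windows of 250 bases before the annotated start (GRCm38.p6) were read on both strands, and the letters of the 2 motifs cannot overlap. CACGTG occurred in 1978 of all 32851 windows (6.02%) and TTATGTAA in 269 (0.819%). Those shares are per window, and a gene can have several. Of the 8 shared genes 6 had a window, with 10 windows in all. CACGTG lay in 4 of these windows, from Abca8a, Per1 and Tef, and TTATGTAA in 1, from Per3. Per2 and Zbtb16 were not matched. Of the 12 clock repressor and output genes 10 had a window, with 12 windows in all, and CACGTG lay in 5 of these, from Bhlhe41, Ciart, Per1 and Tef. The Per1 and Tef stretches below lie inside the gene spans given above, before annotated starts within those spans. Bhlhe41, a clock repressor, was near sham in the main classes where it was measurable, at -0.04 in cardiomyocyte-like and -0.16 in fibroblast-like nuclei. The stretches around the matches are given 5′ to 3′ on the gene's strand, with the motif in capitals, for the clock genes and for Abca8a, the only shared gene outside the clock with a match: Per1 (chr11:69098758-69098813 on the plus strand), Tef (chr15:81802521-81802576 and, before a second annotated start, chr15:81811251-81811306, both on the plus strand), Bhlhe41 (chr6:145865543-145865598 on the minus strand), Ciart (chr3:95882242-95882369 on the minus strand, 3 matches), Per3 (chr4:151044791-151044895 on the minus strand, 2 matches) and Abca8a (chr11:110096043-110096098 on the minus strand).
Per1: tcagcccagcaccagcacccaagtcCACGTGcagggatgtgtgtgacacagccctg
Tef, first start: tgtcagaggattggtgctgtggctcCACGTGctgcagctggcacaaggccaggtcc
Tef, second start: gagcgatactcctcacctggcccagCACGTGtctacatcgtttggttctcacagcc
Bhlhe41: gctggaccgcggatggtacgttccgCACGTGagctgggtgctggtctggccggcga
Ciart: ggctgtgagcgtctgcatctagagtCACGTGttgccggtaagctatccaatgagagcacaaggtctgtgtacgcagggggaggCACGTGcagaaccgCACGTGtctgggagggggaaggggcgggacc
Per3: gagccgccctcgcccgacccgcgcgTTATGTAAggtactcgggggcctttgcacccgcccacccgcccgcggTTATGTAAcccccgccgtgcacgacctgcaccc
Abca8a: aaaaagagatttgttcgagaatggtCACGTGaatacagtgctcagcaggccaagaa
A match is a description of these letters, not evidence of a bound site.

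Zbtb16 (chr9:48654297-48836222), a zinc finger repressor known as a glucocorticoid target, was at 385 CPM in Sham-NS and 106 in MI-DAPA in cardiomyocyte-like nuclei. The values were 486 and 97.6 for fibroblast-like nuclei, 339 and 29.2 for vascular endothelial-like nuclei and 144 and 47.1 for macrophage-like nuclei. In pericyte-like nuclei it had 69 UMIs in Sham-NS and 1 in MI-DAPA. The list of glucocorticoid targets was also mostly lower in the main classes. Lower were 9 of 12 measurable members in cardiomyocyte-like (median -0.51) and 10 of 13 (-0.70) in fibroblast-like nuclei. In vascular endothelial-like nuclei 8 of 9 (-0.61) were lower, and in macrophage-like nuclei 5 of 5 (-1.94). In pericyte-like nuclei 3 of 5 were lower and 2 higher, with a median of -0.11. Per1 and Zbtb16 are themselves members of that list. Tsc22d3, which encodes the anti-inflammatory protein GILZ, was at 116 and 21.7 CPM in fibroblast-like nuclei (-2.39) and at 188 and 30.0 in macrophage-like nuclei (-2.55). Fkbp5, a chaperone partner of the glucocorticoid receptor, was at 96.9 and 42.5 CPM in fibroblast-like nuclei (-1.18) and had 107 and 6 UMIs in cardiomyocyte-like nuclei. Pdk4 and Angptl4, which fasting and fatty acids also induce, went against the rest of the list in cardiomyocyte-like nuclei, at 2.52 and 2.20.

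Cpeb3 and Abca8a each had 1 class with most of the signal. Cpeb3 (chr19:37021291-37208601), an RNA-binding translational regulator, was at 1935 and 458 CPM in cardiomyocyte-like nuclei and between 143 and 191 CPM in Sham-NS in the other 4 classes. Abca8a (chr11:110025634-110095978), a lipid transporter and a fibroblast marker, was at 3962 and 1938 CPM in fibroblast-like nuclei and at 41.0 and 15.5 in cardiomyocyte-like nuclei. Their low levels outside those classes were not separated from free RNA. Slc15a2 (chr16:36750177-36784962), a peptide transporter, was at 263 and 81.4 CPM in macrophage-like nuclei. Haemoglobin transcripts, which come from blood, were also lower in MI-DAPA, with list medians of -1.33, -1.27 and -1.33 in cardiomyocyte-, fibroblast- and vascular endothelial-like nuclei, and mitochondrially encoded transcripts had medians between -0.30 and -0.21 in the 4 main classes and pericyte-like nuclei. The part of either in the shared genes was not tested. The 8 genes were as low with both left out of the totals, but that step rescales all genes of a class alike and cannot show that part.

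In cardiomyocyte-like nuclei Ankrd1, the natriuretic peptides and Myh7 stood above sham, while the stress and fetal list as a whole was split. Ankrd1 (chr19:36111961-36120099), a stretch-induced cofactor of the sarcomere, was at 129 CPM in Sham-NS and 1921 in MI-DAPA, a log2 ratio of 3.89 (3.77 to 4.03). Nppa (chr4:148000722-148002079) and Nppb, which encode the natriuretic peptides ANP and BNP, were at 23.1 and 150 CPM (2.69, 2.38 to 3.03) and at 21.6 and 92.2 CPM (2.08, 1.75 to 2.45). Myh7, the fetal slow myosin heavy chain, was at 60.6 and 318 CPM (2.39), while Myh6, the adult fast form, was at 49483 and 40592 CPM (-0.29). Among 20 measurable stress and fetal genes, 11 were higher, 9 were lower and 7 reached 2-fold higher (all genes 2.18%), and the median was 0.60 against -0.04 over all genes. That median was 0.31 under a stricter nucleus filter and 0.35 with only the 2 libraries clustered. In both settings a cluster with Myh7, Nppa and Lrp8 among its leading genes stayed unnamed and so lay outside the class. It held 4 Sham-NS and 82 MI-DAPA nuclei under the stricter filter, and 11 and 92 with only the 2 libraries clustered. Members that were not higher included Acta2 at -0.96, Cryab, a small heat shock protein, at -0.70, and Acta1, skeletal actin, at -0.06. The genes of the adult sarcomere lay near sham, with 13 of 20 higher, a median of 0.12 and 0 members past 2-fold.

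A small cluster led by Myh7, Sprr1a and Nppa held 2 cardiomyocyte-like nuclei of Sham-NS and 51 of MI-DAPA. In MI-DAPA this cluster had Ankrd1 at 7666 CPM and Nppa at 1431 CPM. In the large cardiomyocyte-like cluster alone (1591 and 1380 nuclei) Ankrd1 was still at 124 and 1605 CPM (3.69), Nppa at 20.4 and 79.7 (1.96) and Nppb at 1.95, while Myh7 came down to 41.9 and 90.4 (1.11). The list's median there was 0.43, with 7 members at least 2-fold higher. Outside cardiomyocytes, Nppa was at 3.76 and 45.2 CPM in fibroblast-like and 5.83 and 74.3 in pericyte-like nuclei, and Ankrd1 at 20.8 and 103 in macrophage-like nuclei. These low levels too were higher in MI-DAPA, and the part of free RNA in the values of any class was not tested.

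Ranked here and in the classes below are genes with UMIs in at least 10 nuclei and, in the library where they were higher, at or above their level in other nuclei. In cardiomyocyte-like nuclei the highest ratios after Ankrd1 belonged to Lrp8, a receptor for reelin and apolipoprotein E (5 and 66 UMIs, 3.71), Scd4, a stearoyl-CoA desaturase (5.53 and 47.7 CPM, 3.08), and Mgat5b, a glycosyltransferase (2.90). After Nppa came Pdk4, a kinase that inhibits pyruvate dehydrogenase, at 12.6 and 72.5 CPM (2.52, 2.09 to 2.99), and Ppm1e, a phosphatase, was at 2.51. Rcan1, a calcineurin feedback inhibitor, was at 2.16. On the low side Ces1d, a carboxylesterase of lipid handling, was at 519 and 24.8 CPM (-4.38, -4.71 to -4.08), the lowest ratio of the class. Ces1d stood at 46.7 to 69.1 CPM in the other 4 classes of Sham-NS and at 0 to 5.42 in those of MI-DAPA. Fkbp5 (-3.93) and Per2 (-3.25) also lay low but did not meet the limits of the ranking, in which Arrdc2 came next, an arrestin-domain protein (242 and 31.1 CPM, -2.96). It was followed by Ciart, Ptgds, prostaglandin D synthase (144 and 21.3 CPM, -2.76), Noxred1 (-2.45), Slc25a29, a mitochondrial carrier of basic amino acids (-2.17), Cpeb3 (-2.08) and Gabra2, a GABA receptor subunit (-2.06).

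Energy metabolism showed small, broad offsets rather than large ones. Over all 8494 measurable genes of cardiomyocyte-like nuclei 4622 were lower, with a median of -0.04. The 13 mitochondrially encoded genes had 12 lower and a median of -0.25. Fatty acid oxidation, the main fuel route of adult heart muscle, had 18 of 31 members higher and a median of 0.09, with Pdk4 and Angptl4 the 2 past 2-fold. Glycolysis and glucose uptake had 21 of 25 lower and a median of -0.25: Pgam1 was at -1.04, Mpc1, part of the mitochondrial pyruvate carrier, at -0.96 and Pfkfb2 at -0.89, whereas Pfkp was at 0.97. All 5 measurable genes of ketone metabolism were lower, with a median of -0.51, among them Oxct1, which starts ketone body use, at 229 and 137 CPM (-0.75). Nuclear genes of oxidative phosphorylation had 28 of 31 lower with a median of -0.27, 0 of them past 2-fold, and Sdhb at -0.63. Insulin- and FOXO-responsive genes split, with 3 at least 2-fold higher (all genes 2.18%) and 4 at least 2-fold lower (all genes 1.95%) of 18, and a median of 0.12: the atrophy ligase Fbxo32 was at 1.18, and Pik3r1 and Klf15 were at -1.33 and -1.28. Sterol and lipid synthesis had 8 of 10 lower, with its regulator Srebf1 at -1.09. Bnip3, a mitophagy receptor and hypoxia target, was at -1.78, and Vegfa, another, at 0.43.

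Ion handling genes lay near sham, as did most genes of cardiomyocyte-like nuclei. Of all measurable genes there, 2.18% were at least 2-fold higher and 1.95% at least 2-fold lower. Beside those shares, the few members past 2-fold do not set these lists apart. Calcium handling had 0 of 19 members past 2-fold and a median of -0.04, with Slc8a1, the sodium-calcium exchanger, at 0.68 and Jph2, which ties the T-tubule to the sarcoplasmic reticulum, at -0.59. Among 16 potassium channel genes only Kcnv2, a modifier subunit, passed 2-fold, at 82.5 and 27.0 CPM (-1.61), and Kcnip2, a subunit of the transient outward current, was at 320 and 176 CPM (-0.87). Sodium and proton handling had a median of 0.08, with Scn4a, at 1.05, the only 1 of 13 members past 2-fold, and Car14 at -0.90.

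The drug's own target was not detectable in cardiomyocyte-like nuclei: Slc5a2 had 0 UMIs in 1593 Sham-NS and in 1431 MI-DAPA nuclei, which allows up to 0.188% and 0.210% of nuclei with a UMI. The related Slc5a1 had 1 and 0 UMIs. Slc5a2 UMIs were in 4 nuclei of Sham-NS (13 UMIs) and 2 of MI-DAPA (14 UMIs), which the clusters had placed with fibroblast-like or, in Sham-NS, also smooth muscle-like nuclei. Those nuclei also held 32 and 50 UMIs of Slc34a1 and 10 and 7 of Lrp2, genes of the kidney proximal tubule. In Sham-NS each of these 2 genes was found in only 2 of the 4 nuclei, and in MI-DAPA in 2 of 2. The fibroblast markers Dcn and Pdgfra had 0 UMIs in them.

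In fibroblast-like nuclei the activated and matrix genes stood far above sham and the genes of resting fibroblasts below it. Postn (chr3:54361109-54391037), periostin, the standard marker of activated fibroblasts, was at 61.6 CPM in Sham-NS and 1593 in MI-DAPA, a log2 ratio of 4.68 (4.37 to 5.03). Ltbp2 (chr12:84783212-84876532), a microfibril and TGF-beta-binding protein, was at 29.3 and 889 CPM (4.90), and Comp, a cartilage matrix protein of mature scar, at 18.0 and 444 CPM (4.59). Col1a1, the main fibrillar collagen, was at 196 and 988 CPM (2.33, 2.14 to 2.53). The other members of the top 8 were Kif26b, a kinesin (1 and 56 UMIs), Thbs4, thrombospondin 4 (2 and 70), the Wnt modulator Sfrp2 (3 and 72), the matrilin Matn4 (2 and 50) and Dio2, which activates thyroid hormone (3 and 61), all nearly absent from sham. Their ratios, from 4.40 to 5.50, rest on those few sham UMIs.

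By list, 17 of 18 measurable activated fibroblast and myofibroblast genes were higher, 15 at least 2-fold (all genes 3.97%). Their median was 3.13 against 0.06 over all genes. Only these 18 of the 31 listed genes reached the UMI minimum, which is taken over both libraries. A gene nearly absent from sham, such as Kif26b (1 and 56 UMIs) or Thbs4 (2 and 70), reaches it only when high in MI-DAPA. The count and the median of this list are therefore partly set by the minimum. Of the 34 collagen and other matrix genes 32 stood higher and 22 reached 2-fold (median 1.61), with Col11a1 at 3.78, Thbs1 at 3.64 and Dcn, decorin, at -0.90. Matrifibrocyte genes, the scar-maintaining set, were higher in 6 of 6 (median 1.21), led by Comp and by Cilp2 at 3.70, with Ccn5 at 1.52. Only 6 of the 13 genes of that set were measurable, so the same limit applies to it. The TGF-beta pathway had 19 of 26 higher and a median of 0.46, but only 3 members at least 2-fold higher (all genes 3.97%). These were Ltbp2, the target Ccn2 (101 and 391 CPM, 1.94) and the ligand Tgfb3 (39.8 and 144 CPM, 1.84). Its receptors Tgfbr1 and Tgfbr2 were at 0.15 and -0.54, and the coreceptor Tgfbr3 at 185 and 70.5 CPM (-1.38). Several genes stand in more than 1 of these lists, so their counts are not separate evidence.

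Of 24 measurable quiescent fibroblast genes 22 were lower, 9 at least 2-fold, with a median of -0.77. Over all 7278 genes of the class 3206 were lower, 196 at least 2-fold (2.69%), with a median of 0.06. Inmt, a methyltransferase, had 81 and 3 UMIs (-4.27, -6.80 to -2.89). Gsta3, a glutathione transferase, was at 214 and 20.8 CPM (-3.34), Ppl, periplakin, at 460 and 48.8 (-3.22), and the membrane peptidase Mme at -3.10. Hsd11b1, which regenerates active glucocorticoid, was at -2.76, Fmo2, a flavin monooxygenase, at 472 and 96.7 CPM (-2.28), and the complement component C7 at -2.19. The clock output factors Hlf (-3.14) and Dbp were also among the 8 lowest of the ranking. Tcf21, a lineage factor of cardiac fibroblasts, and the receptor Pdgfra were near sham at 0.27 and -0.07.

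Cluster makeup differed sharply within the class. A cluster led by Gsta3, Inmt and Dpep1 held 1527 Sham-NS and 192 MI-DAPA nuclei, one led by Vcan and Gli1 held 225 and 658, and one led by Comp, Ltbp2 and Thbs4 held 11 and 503. Within the Gsta3- and Inmt-led cluster, Col1a1 was at 172 and 600 CPM (1.81) and Postn at 29.8 and 88.9. There, 22 of 28 matrix genes were higher (median 0.71, all genes 0.03). At least 2-fold higher were 8 of them, where 147 of all 4766 measurable genes of the cluster were. Within the Vcan- and Gli1-led cluster, Postn was at 171 and 877 CPM (2.33), Col1a1 at 326 and 699 (1.09), and 28 of 30 matrix genes were higher (median 0.83, all genes 0.09). Only 7 and 10 activated genes were measurable in those clusters, with medians of 0.11 and 0.22. These cannot be set against the class median of 3.13, which is over 18 members. Over the class without the Comp-led cluster the median of the measurable members was 0.96. Quiescent genes had medians of -0.43 over 21 members and 0.06 over 15. Per2 was at 443 and 29.6 CPM in the first cluster and 376 and 24.4 in the second. Of the clock repressor and output genes 10 of 10 measurable were lower in the first (median -1.83) and 7 of 8 in the second (-1.99).

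**Figure D3:**
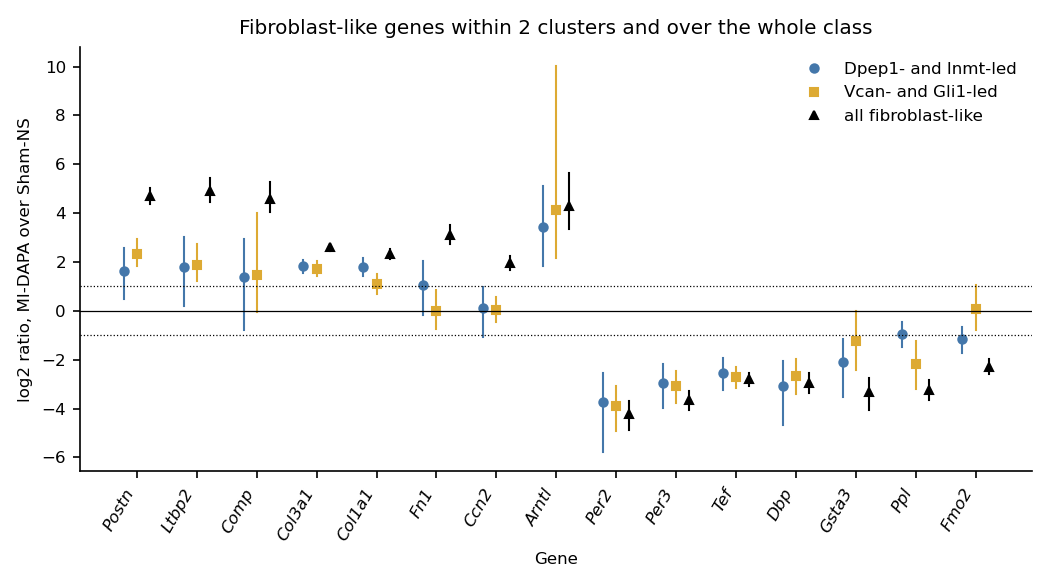
Log2 ratio, MI-DAPA over Sham-NS (vertical axis), of 15 genes (horizontal axis) in the cluster led by Dpep1 and Inmt, the cluster led by Vcan and Gli1, and all fibroblast-like nuclei, with counting intervals as bars and dotted lines at 2-fold. Postn is at 4.68 over the class and at 1.61 and 2.33 within the clusters, while Per2 is at -4.23 over the class and at -3.73 and -3.90 within them.

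Collagen and periostin UMIs were also present in other classes at lower levels. Col1a1 was at 7.58 and 90.0 CPM in macrophage-like and 18.5 and 55.5 in vascular endothelial-like nuclei, and Postn at 1.89 and 72.9 and at 8.33 and 40.9. Free RNA was not separated from RNA of these nuclei, and its part in the fibroblast-like values was not tested.

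In vascular endothelial-like nuclei 3 collagen genes of the basement membrane stood above sham, and Per2, Acer2 and Timp4 below it. Col15a1, a basement membrane collagen, was at 37.0 and 181 CPM (2.28, 1.69 to 2.90), and Col4a1 (chr8:11198423-11312826) and Col4a2, which form collagen IV, at 216 and 690 (1.68, 1.41 to 1.94) and 181 and 462 (1.35). Unc5b, a netrin receptor of growing vessels, was at 1.59, the mechanosensitive channel Piezo2 at 1.77, the ciliary gene Ift122 at 1.82, the metalloprotease Adam19 at 1.62, and Galnt11 and the cathepsin Ctsz at 1.52. Angiogenesis genes were higher in 19 of 22, 3 at least 2-fold (all genes 1.41%), with a median of 0.66 (all genes 0.02). Flt1, the decoy VEGF receptor, was the lowest of them at -0.63 and Kdr was at 0.41. Within the capillary cluster led by Timp4 and Car4 alone (1478 and 442 nuclei), the median was 0.59 with 18 of 22 higher.

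After Per2 the lowest ratios of the ranking were those of Acer2, an alkaline ceramidase (193 and 32.1 CPM, -2.53), the interferon-induced GTPase Tgtp2 (-2.29), Fmo2 (252 and 58.4 CPM, -2.07) and Timp4, a metalloproteinase inhibitor of capillaries (210 and 49.7 CPM, -2.04). Thrsp, a lipogenic factor, Coq10b and Kifap3 followed between -1.88 and -1.83, each with 6 or fewer UMIs in MI-DAPA. Zbtb16 (-3.47), Per3 (-3.26) and Ces1d (64 and 0 UMIs, at least 6.76-fold lower against the limit of 3 counts) were lower than Acer2 but did not meet the limits of the ranking. Lpl, lipoprotein lipase, which releases fatty acids for the heart at the capillary wall, was at 433 and 184 CPM (-1.22). The capillary list as a whole was near sham, with 12 of 19 lower and a median of -0.08. Endothelial activation genes had 9 of 12 higher and a median of 0.30, with the adhesion molecule Vcam1 at 1.13 and Nos3, endothelial nitric oxide synthase, at 0.63, but the median was 0.03 with the Prnd- and Kit-led cluster added and -0.11 with nuclei thinned to 500 UMIs. Pooled with that cluster, the class had 121 of 5939 genes at least 2-fold higher (2.04%) and 119 lower (2.00%). In the cluster alone, 58 of 1630 genes were at least 2-fold higher (3.56%) and 21 lower (1.29%), with Pola2, Klhl6 and Smarcad1 highest (2.39, 2.34 and 2.06) and Btaf1, Iigp1 and Hipk1 lowest in the ranking (-1.30, -1.30 and -1.27), on 2 to 26 UMIs of each in Sham-NS. Outside the ranking, Tef (41 and 23 UMIs, -2.87), Nr1d2 (-1.74) and Peg3 (-1.61) were lower.

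In macrophage-like nuclei several resident-macrophage and interferon genes were lower and some genes of recruited or lipid-handling macrophages higher. Cd163 (chr6:124304656-124330527), the haemoglobin scavenger receptor of resident cells, was at 1201 and 467 CPM (-1.36, -1.67 to -1.07), and Lyve1, a hyaluronan receptor of the same cells, at 123 and 34.3 (-1.77). Mrc1, another resident marker, was at 2055 and 1881 CPM (-0.13), and the resident list had 11 of 14 lower but a median of only -0.14. Lgals3, galectin 3, was at 32.2 and 141 CPM (2.11, 1.25 to 3.07), Trem2, a lipid receptor, at 98.5 and 236 (1.26), and the chemokine Cxcl16 at 349 and 977 (1.49). Other genes in the top 8 were Ms4a7 (252 and 724 CPM, 1.52), the adhesion molecule Alcam (1.63), the fractalkine receptor Cx3cr1 (1.57), Rnf13, Cacna1d and the proliferation marker Mki67 (16 and 35 UMIs, 2.28). Apoe, which the Trem2 programme also contains, was lower, at 2120 and 849 CPM (-1.32), and that list's median was 0.10.

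Interferon response genes were lower in 12 of 14 (median -0.72, all genes 0.04), with Oas2 at 1400 and 639 CPM (-1.13, -1.40 to -0.88). The interferon-inducible Gbp9, Gbp7 and Slfn2 were among the 8 lowest of the ranking, at -1.50, -1.46 and -1.51, above Tsc22d3, Per1, Fkbp5, Lyve1 and Slc15a2. Per2, Dbp, Tef and Per3 were lower still, from -3.83 to -2.66, but stood below their level in other nuclei. C1qa, the start of the classical complement pathway, was at -1.07 and the complement and phagocytosis list at -0.09. The monocyte chemokine Ccl2 was at -1.04, and its receptor Ccr2, which marks recruited cells, at 131 and 206 CPM (0.66, 0.09 to 1.21). Nlrp3, the inflammasome sensor, had 20 and 13 UMIs, too few to count. The inflammasome list had a median of 0.05, with Nlrp1b alone of 15 members at least 2-fold higher, at 1.22 (all genes 1.26%). Class II antigen presentation had 6 of 8 higher with a median of 0.18, which was -0.49 when nuclei were classed by marker level. The medians of the Trem2, inflammasome and alternative activation lists (0.10, 0.05 and 0.04) became 0.00, -0.05 and -0.06 under another scaling (TMM), so no direction is given for them.

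**Figure D4:**
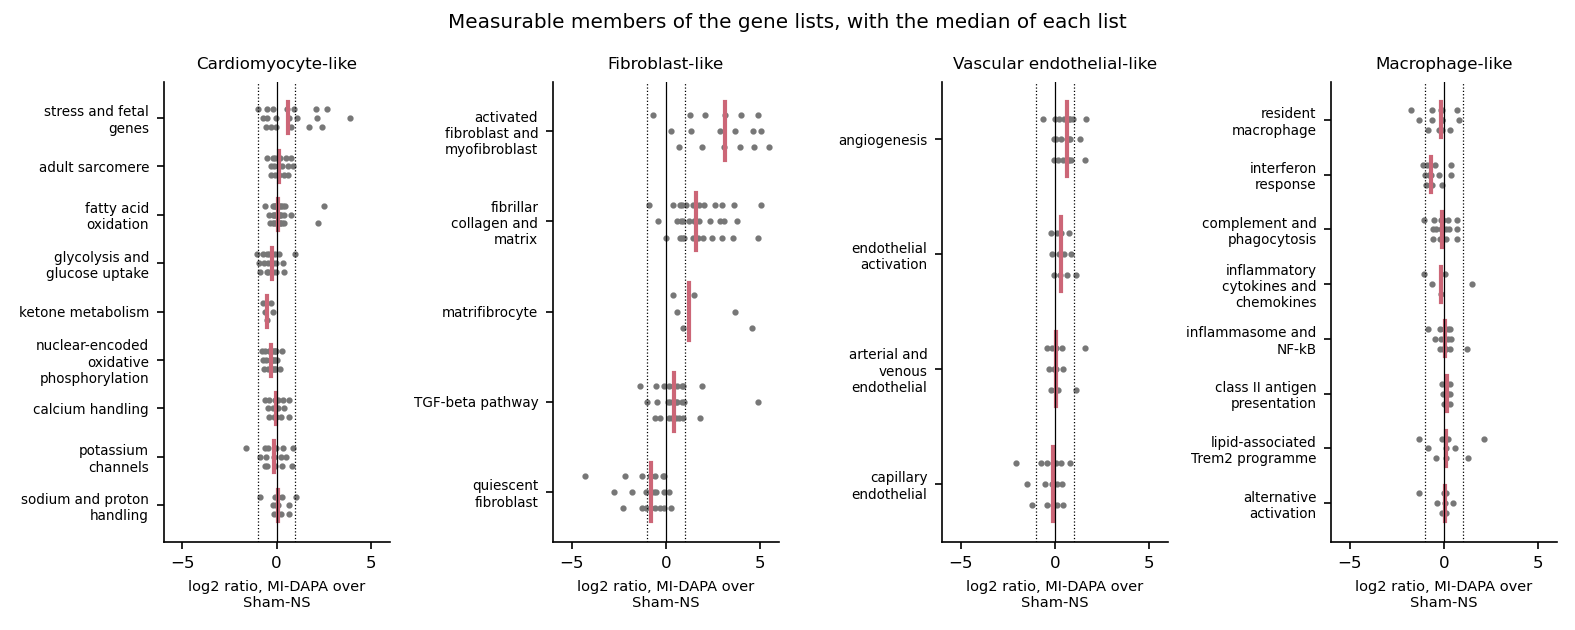
Log2 ratio, MI-DAPA over Sham-NS (horizontal axis), of each measurable member (grey points) of the gene lists of the 4 main classes, with the list median as a red bar and dotted lines at 2-fold. The activated fibroblast list has its median at 3.13 and the quiescent list at -0.77, and in cardiomyocyte-like nuclei the stress list has its median at 0.60 and the ketone list at -0.51.

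Pericyte-like nuclei had 26 of 2267 genes at least 2-fold higher (1.15%) and 41 lower (1.81%). Col5a3, a fibrillar collagen chain, was at 499 and 2351 CPM (2.23, 1.99 to 2.49), with Igf2r, the receptor that clears IGF2, at 1.70 and Col5a2 at 1.65. Col4a2, Col4a1 and Postn were at 1.47, 1.28 and 1.26, and 12 of 17 pericyte and smooth muscle genes were higher (median 0.31, all genes 0.01). The lowest in the ranking were Per3 (178 and 5 UMIs, -4.44), Per2 (-3.51) and Kalrn (-1.82). Outside it Zbtb16 was lower than Per3, at -4.95 (-10.85 to -3.00) on its 69 and 1 UMIs, and Cpeb3 (-2.14) and Tef (-2.11) were lower than Kalrn. Col4a1 and Col4a2 were at least 2-fold higher in MI-DAPA in both pericyte- and vascular endothelial-like nuclei.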

How the data were processed

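Per the labels' protocols and file headers, nuclei were sequenced with 10x Genomics 3′ chemistry and the authors deposited filtered UMI counts per gene and barcode made with Cell Ranger 6.0.1. Mouse build mm10 and Seurat are named in the submitters' processing notes, the latter with no version. The deposited counts are whole numbers for 32285 features, and no barcode had under 500 UMIs.

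The 3 libraries were clustered together with scanpy 1.11.5 (2000 variable genes, 30 components, 15 neighbours, Leiden resolution 1.0), after which only MI-DAPA and Sham-NS were compared. A cluster took a class name from 21 marker sets when at least 3 of the markers stood 2-fold above other nuclei and no other class led its top 10 genes. Doublet scores came from Scrublet, and clusters with a median score over 0.1 were left out. UMIs were summed per class and library and scaled to CPM. Intervals were exact: Clopper-Pearson for a share, conditional binomial for a ratio and Poisson for a level. A count of 0 was given the limit of 3 counts. No test was run, since each group is 1 library; the arithmetic was tested on simulated data.

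Named genes were, per main class, the 8 highest and 8 lowest ratios past 2-fold (3 in other classes), up to 4 members of each list and 12 fixed genes, the first kinds with UMIs in at least 10 nuclei of the higher library and there at or above the level of other nuclei. The rule left out predicted, mitochondrial, ribosomal, haemoglobin and sex-linked genes. A few genes that the rule names are not reported here. Named after their values were seen were the other list members given, the clock genes among them. The members, the 39 gene lists and the comparison itself were chosen with earlier results of these data known. Gene positions are from the GENCODE annotation of GRCm38, the build of mm10. The promoter letters are from RefSeq on GRCm38.p6.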

Additional observations from a re-analysis of the deposited data

How the results depend on the processing

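The 155 named gene and class pairs past 2-fold were compared under 12 alternatives, and those that could be compared kept their sign; other called genes were not followed. Of these pairs 155 of 155 stayed past 2-fold with TMM factors or with mitochondrial and haemoglobin UMIs left out, 69 of 69 with at least 200 UMIs, 146 of 151 at Leiden resolution 2.0, 144 of 152 with only the 2 libraries clustered, 145 of 155 with mixed clusters kept, 114 of 124 with thinned nuclei, 109 of 122 with classes by marker level, 78 of 85 under the stricter nucleus filter, 25 of 32 with the Prnd- and Kit-led cluster added, 36 of 36 without the Myh7-led cluster and 27 of 33 without the Comp-led cluster. The 200-UMI minimum only selects genes and leaves their ratios unchanged, so 69 of 69 was fixed in advance and is no check. TMM factors and totals without mitochondrial and haemoglobin UMIs rescale all genes of a class alike, so 155 of 155 says nothing on free RNA. The counts of genes follow the minimum by construction, since it sets how many genes are tested. With at least 200 UMIs, higher and lower counts were 50 and 68 in cardiomyocyte-like nuclei, 86 and 68 in fibroblast-like nuclei, 5 and 27 for the vascular endothelial-like class, 7 and 10 for the macrophage-like and 1 and 4 for the pericyte-like class, and the clock repressor medians were -1.50, -2.80 and -1.99 in the first 3. With no minimum the counts were 2419 and 2206, 3137 and 2156, 2268 and 1313, 2740 and 1615, and 2398 and 2759. Where no reason is given here or above, the cause of a shift below was not tested. TMM factors gave 24 genes higher in macrophage-like nuclei.

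Nucleus filters and class rules moved more. At 500 genes and 5% mitochondrial UMIs, the log2 share ratios were 0.082 for cardiomyocyte-like, 2.22 for fibroblast-like, -0.99 for macrophage-like and -0.52 for pericyte-like nuclei, and the fibroblast-like value arose because a cluster of 562 Sham-NS and 53 MI-DAPA nuclei led by Inmt, Gsta3 and Dpep1 took another name; vascular endothelial-like nuclei had no value, as a cluster with Kit among its leading genes stayed unnamed. There, 87 genes were lower in fibroblast-like nuclei and 45 higher and 76 lower in pericyte-like nuclei, and medians were 0.31 for stress genes, -0.069 for clock activators in cardiomyocyte-like nuclei, 1.62 for activated fibroblast, 1.25 for matrix, -1.80 and -2.29 for clock repressors in fibroblast- and macrophage-like nuclei and -0.79 for glucocorticoid targets in pericyte-like nuclei. Classing each nucleus by marker level gave share ratios of 0.76 (fibroblast-like), -0.88 (macrophage-like) and -0.37 (vascular endothelial-like), 124 higher and 81 lower fibroblast-like genes, 107 lower macrophage-like and 64 lower pericyte-like genes, and medians of 2.73 (activated fibroblast), -0.49 (class II), -2.36, -1.86 and -2.60 (clock repressors in macrophage-, pericyte- and vascular endothelial-like nuclei) and -0.97 and -0.90 (glucocorticoid targets in fibroblast- and vascular endothelial-like nuclei).

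Clustering only the 2 libraries gave a vascular endothelial-like share ratio of -0.30, 118 genes higher there and 72 in macrophage-like nuclei, a stress median of 0.35, and vascular medians of -0.34 (arterial and venous), -1.58 (clock repressors), 0.033 (activation) and -0.92 (glucocorticoid targets). Adding the Prnd- and Kit-led cluster gave a share ratio of -0.28, 121 genes higher and medians of -0.36, -1.63, 0.031 and -0.95 for the same lists. Thinning nuclei to 500 UMIs gave 76 higher genes in cardiomyocyte-like and 115 in vascular endothelial-like nuclei, a vascular share ratio of -0.25, and medians of -1.06, -1.63 and -2.02 (clock repressors in cardiomyocyte-, fibroblast- and pericyte-like nuclei), -0.39 (potassium channels), 2.87 (activated fibroblast), -1.49 and -1.24 (glucocorticoid targets in macrophage- and vascular endothelial-like nuclei), -0.21 (arterial and venous) and -0.11 (activation). Keeping mixed clusters gave 85 higher and 165 lower genes in macrophage-like and 55 and 120 in pericyte-like nuclei, and medians of -1.90 and -1.58 (clock repressors in fibroblast- and macrophage-like nuclei), 1.49 (matrifibrocyte) and -1.54 and -0.44 (glucocorticoid targets in macrophage- and pericyte-like nuclei). Without the Comp- and Ltbp2-led cluster, an alternative chosen after seeing the data like the Prnd- and Kit-led one, fibroblast-like nuclei had 144 genes higher and medians of 0.96 (activated), 1.09 (matrix), 0.20 (TGF-beta), -1.55 (clock repressors), -0.39 (glucocorticoid targets) and -0.39 (quiescent). Depth limits the smaller classes: intervals wholly past 2-fold were left for 6 genes higher and 15 lower with 510 MI-DAPA nuclei (vascular endothelial-like), 4 and 10 with 367 (macrophage-like), 3 and 7 with 335 (pericyte-like), and 0 and 2 with 111 Sham-NS nuclei (the Prnd- and Kit-led cluster).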
